A study of Mus musculus with 28 samples.

Results

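A dye swap labels pairs of samples in both directions, so that an effect of the dye and an effect of the treatment can be separated probe by probe. The arrays described here are the two-colour Agilent mouse arrays hybridized at the 1X cDNA input, 8 of the 28 arrays of the series. Their channel labels put phenobarbital liver in the red dye Cy5 on arrays 1, 4, 5 and 7, and in the green dye Cy3 on arrays 2, 3, 6 and 8. On arrays 4 and 8 the free-text description gives the opposite dyes. The tests therefore used the 6 arrays on which both labels agree, 3 in each orientation. The study asked how RNA from old paraffin blocks can be prepared for this array platform.

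The exposed group was 3 male B6C3F1 mice given phenobarbital at 0.05% in drinking water for about 4 weeks, and the control group was 3 male B6C3F1 mice given drinking water alone. The labels give an age of 42 days for all 6 mice. The livers had been formalin-fixed and kept for 16 years as paraffin blocks. RNA came from a Qiagen FFPE RNeasy kit, was copied to cDNA with the WTA2 kit and was labelled with a KREAtech ULS kit. Each mouse was labelled once in Cy5 and once in Cy3 over the 6 arrays, so the orientations are repeat labellings of the same mice and not separate animals. All 8 arrays lay on 1 slide. In whole liver, fewer cells of a type and less RNA per cell cannot be told apart.

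ULS labelling attaches a dye to nucleic acid bases through a platinum complex, without an enzyme. Two-colour experiments are commonly repeated with the dyes exchanged because a treatment effect then changes sign in the ratio of Cy5 over Cy3, while a dye effect keeps its sign. In hepatocytes phenobarbital acts through CAR, the constitutive androstane receptor, a nuclear receptor that switches on cytochromes P450, glutathione S-transferases and their partner enzymes.

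Cy5 was the weaker channel, in both orientations. With phenobarbital in Cy5 (arrays 1, 5 and 7), the Cy5 channel had 14.8%, 19.9% and 14.8% of the 55681 probes well above background, and the Cy3 channel 27.3%, 21.9% and 25.4%. With phenobarbital in Cy3 (arrays 2, 3 and 6), the Cy5 channel had 20.5%, 21.8% and 23.1%, and the Cy3 channel 26.8%, 31.5% and 23.1%. The Cy5 share averaged 19.1% ± 3.55 and the Cy3 share 26.0% ± 3.41 (SD, n = 6 arrays), a difference of -6.85 ± 4.97 percentage points. Its two-sided exact sign-flip permutation p was 0.03125, the smallest that 6 arrays can give. On array 6 the channels were level, and on array 1 they stood furthest apart.

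The raw log2 ratio of Cy5 over Cy3, from median spot signals less local background, was negative in the median on all 6 arrays. Over the probes tested below, its median was -2.03, -1.04 and -2.02 with phenobarbital in Cy5, and -0.61, -1.25 and -0.03 with phenobarbital in Cy3. The mean over the 6 arrays was -1.16 ± 0.79 (SD, exact sign-flip permutation p = 0.03125, two-sided). The orientations had means of -1.70 ± 0.57 with phenobarbital in Cy5 and -0.63 ± 0.61 with phenobarbital in Cy3 (SD, n = 3 arrays each). The median over probes of the raw dye term, the mean of both orientations, was -1.17. After the dye normalization in the authors' deposited signals the median was 0.00203.

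**Figure D1:**
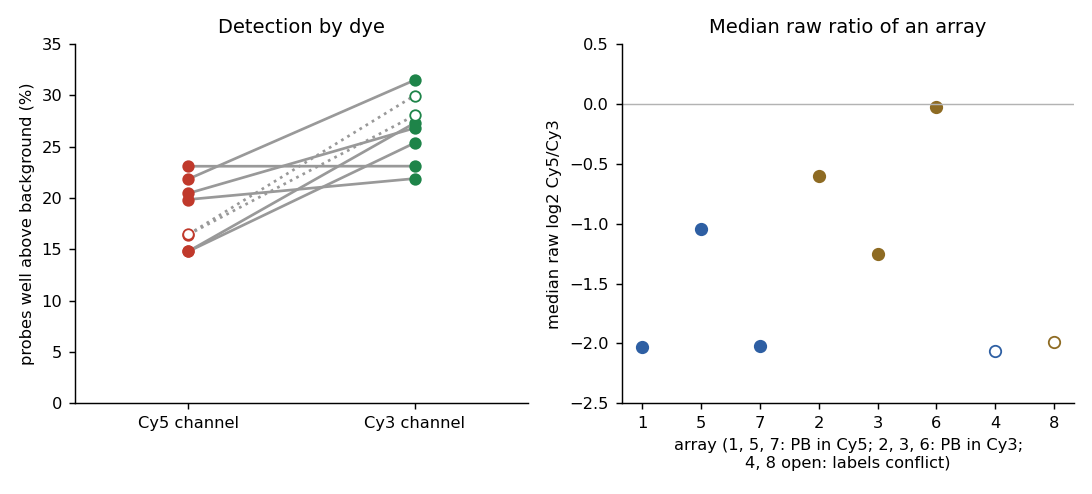
Left: percent of probes well above background in the Cy5 and Cy3 channel, with a line for each 1X array. Right: median raw log2 ratio of Cy5 over Cy3 of each array over the tested probes, blue with phenobarbital in Cy5 and brown with phenobarbital in Cy3. Open points are arrays 4 and 8, whose labels conflict. The medians of the 6 filled arrays run between -2.03 and -0.03.

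The question for single probes was which of them departed from this overall gap in the same way whichever liver carried the dye. Each array was centred on its median ratio, and the dye term of a probe is its mean centred ratio over both orientations. A probe was tested when it was well above background in both channels on all 6 arrays, which 7113 probes were. Most carried little: 90.3% lay within a 1.2-fold departure, and the 5th and 95th percentiles were -0.26 and 0.27 on the log2 scale. By limma with Benjamini-Hochberg adjustment, 171 probes (2.4%) had a dye term at an adjusted p under 0.05, of which 136 lay toward Cy5 and 35 toward Cy3. The dye terms ran between -1.77 and 1.92, with 53 probes above 1 and 15 below -1. The split between the dyes depended on the processing. Without background subtraction 65 probes were called toward Cy5 and 39 toward Cy3, and with normexp values and a filter on Cy3 alone 60 toward Cy5 and 84 toward Cy3. As a difference within mice, 98 were called toward Cy5 and 8 toward Cy3.

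Most probes with a dye term toward Cy5 were among the brightest probes tested. Brightness was taken from other arrays, the one-colour 1X arrays of the same mice, as the mean log2 processed signal. All 136 probes called toward Cy5 lay in the brightest of 5 equal steps of probes, which starts at 11.7. In that step 10.5% were called in either direction, against 0.0703% in the dimmest step. Of the 84 probes with a brightness of 17 or more, 82 were called toward Cy5 (97.6%), with a median dye term of 1.03. Between 16 and 17 it was 31 of 88 probes with a median of 0.38, and between 15 and 16 it was 15 of 108 with a median of 0.28. The median was -0.12 below a brightness of 8, where no probe of 478 was called toward Cy5. The scanner called no spot saturated on these arrays. Loess after normexp background correction left a median of 0.80 in the step of 17 or more.

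**Figure D2:**
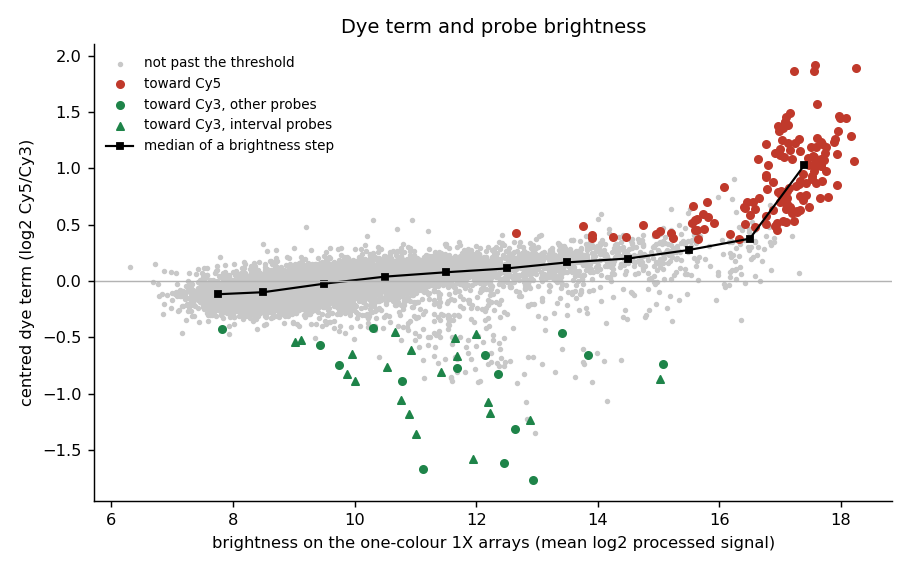
Centred dye term (log2 Cy5 over Cy3, y axis) of the 7113 tested probes against brightness on the one-colour 1X arrays (mean log2 processed signal, x axis). Coloured points passed an adjusted p of 0.05, and black squares are medians of brightness steps. The median rises with brightness and is 1.03 at 17 or more, while calls toward Cy3 lie mostly between 9 and 14.

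Among probes with a gene symbol, the 10 named genes led the calls toward Cy5, and their ratios lay above the array median on all 6 arrays. Zfp663, a zinc finger gene, had centred log2 ratios of 1.55, 1.72 and 1.51 with phenobarbital in Cy5, and of 2.26, 1.99 and 2.15 with phenobarbital in Cy3. Its dye term was 1.86 ± 0.08 (SE, limma adjusted p = 1.887e-05). Proser3 had 1.58, 1.74 and 1.47 with phenobarbital in Cy5, and 2.24, 1.94 and 2.22 with phenobarbital in Cy3 (dye term 1.86 ± 0.08). Both genes were thus high in both orientations, and somewhat higher where the control liver carried Cy5.

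Rn28s1, the 28S ribosomal RNA, ran the other way between orientations. Its centred ratios were 1.99, 1.67 and 1.82 with phenobarbital in Cy5, and 1.12, 1.64 and 0.56 with phenobarbital in Cy3, and the groups did not overlap. Its dye term was 1.47 ± 0.13 (SE, limma adjusted p = 0.0004115). Sp110, which encodes a nuclear body protein, had nearly level values of 1.31, 1.49 and 1.42 with phenobarbital in Cy5, and of 1.52, 1.67 and 1.28 with phenobarbital in Cy3, and its groups overlapped.

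The other 6 genes of this group were Hexim2, a homologue of the transcription elongation inhibitor Hexim1, Oprm1, the mu opioid receptor of neurons, Pdcd4, an inhibitor of translation, Slc17a5, a lysosomal sialic acid transporter, Itgam, the integrin alpha M of myeloid cells, and Mcidas, a regulator of multiciliated cells. Their dye terms lay between 1.39 and 1.57. Itgam showed the widest swing, with 0.85, 1.23 and 0.50 with phenobarbital in Cy5, and 2.24, 1.47 and 2.15 with phenobarbital in Cy3. In these 6 genes the values with phenobarbital in Cy3 were the higher ones. How many of all probes split in this way was not counted, so the split is not shown to be particular to these genes. None of these genes is known for high expression in hepatocytes.

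**Figure D3:**
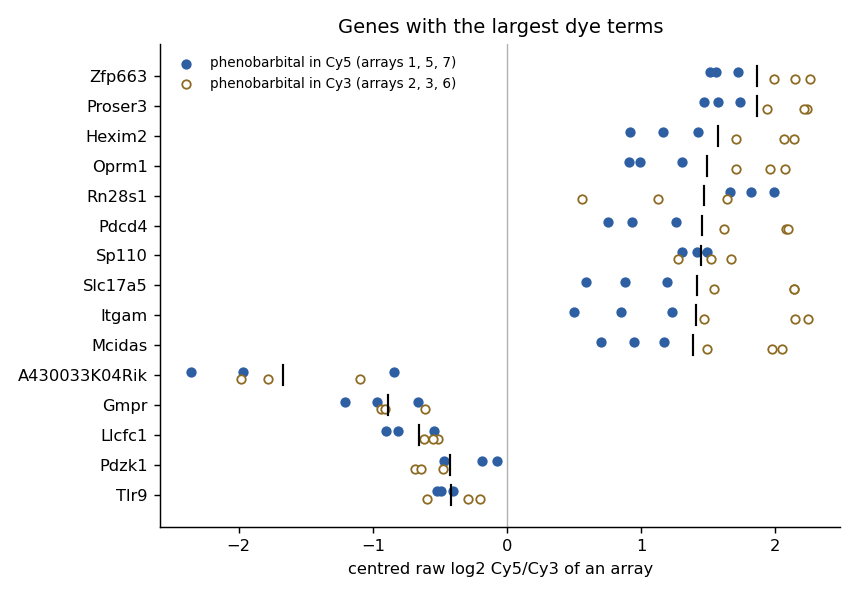
Centred raw log2 ratio of Cy5 over Cy3 (x axis) on each of the 6 arrays for the 15 genes with the largest dye terms by the naming rule. Filled blue points are arrays with phenobarbital in Cy5, open brown points arrays with phenobarbital in Cy3, and black bars the mean of the 6 arrays. The upper 10 genes lie to the right of 0 and the lower 5 to the left on every array.

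The bright probes that carry these symbols stood apart from other probes of the same genes. The Oprm1 probe with the dye term had a one-colour brightness of 17.2, while the other Oprm1 probe of the array was at 2.57. For Zfp663 the probes were at 17.2 and 2.78, and for Slc17a5 at 17.1 and 2.45. The biased probe of Hexim2 was at 17.6, with 2 further probes at 3.84 and 2.88. For comparison, Rn28s1 was at 18.0 and the albumin gene Alb at 16.4. Among the 63 genes with a symbol and a probe at 17 or more, 41 had another probe on the array, 57 probes in all, and the median brightness of these was 5.18, against 4.57 over all probes of the array. No such further probe reached 16. Which RNA the bright probes bound was not tested.

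Calls seldom covered all probes of a gene. Of 580 genes with at least 2 tested probes, 24 had a called probe, and in 23 of them only 1 probe was called. Trf, the iron carrier transferrin, was the exception. Its brighter probe (16.8) had a dye term of 0.82 ± 0.11 and its dimmer probe (15.2) one of 0.43 ± 0.09 (SE, limma adjusted p = 0.003122 and 0.04104). Across the first 2 probes of all 580 genes the dye terms had a Pearson r of 0.11, across genes, which are not independent replicates.

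With the filter on both channels, calls toward Cy3 were fewer and came mostly from dimmer probes than the calls toward Cy5. With normexp values and the filter on Cy3 alone, calls toward Cy3 were the more numerous, as given above. Among the 5 equal steps of brightness, the brightest held 14 calls toward Cy3, the next 13 and the dimmest 1. Only 5 genes with a symbol met the naming rule, and none of these 5 passed as a difference within mice. A430033K04Rik, a gene of unknown role here, had centred ratios of -2.35, -1.97 and -0.84 with phenobarbital in Cy5, and of -1.98, -1.10 and -1.78 with phenobarbital in Cy3 (dye term -1.67 ± 0.19, SE, limma adjusted p = 0.001778). Gmpr, a guanosine monophosphate reductase, had -1.21, -0.97 and -0.67 with phenobarbital in Cy5, and -0.94, -0.61 and -0.91 with phenobarbital in Cy3 (dye term -0.89 ± 0.10). In both genes the orientations overlapped. Llcfc1, a sperm protein gene, had a dye term of -0.66, Pdzk1, a scaffold of membrane transporters, one of -0.42, and Tlr9, the DNA-sensing Toll-like receptor, one of -0.42. In Cy5, A430033K04Rik gave net signals of only 43 to 136, against 231 to 897 in Cy3. Pdzk1 lost its call, and its sign turned to 0.06, without background subtraction.

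Of the 35 probes called toward Cy3, 20 are named in the files only by a genomic interval and a strand letter. Such interval probes made up 942 of the 7113 probes tested. They were called toward Cy3 in 2.12% and toward Cy5 in 0.318%, while probes with a gene symbol were called toward Cy3 in 0.125% and toward Cy5 in 2.09%. The median dye term was -0.05 for interval probes and 0.00 for probes with a symbol, and both classes were about equally bright in the median (9.68 and 9.65). These shares were not tested against each other. The probe to chr13:44217172-44224947 (build mm9, strand letter F) was the lowest interval probe, with -1.01, -1.73 and -1.38 with phenobarbital in Cy5, and -1.32, -1.42 and -2.63 with phenobarbital in Cy3. The probe to chr2:174088550-174109425 (F) followed with a dye term of -1.36 ± 0.10 (SE, limma adjusted p = 0.0001559). Both strands gave 10 calls toward Cy3, among 516 probes with the letter F and 426 with the letter R. In the 9 intervals with at least 2 tested probes and a call toward Cy3, no interval had all its tested probes called.

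Within the gene lists followed here, calls toward Cy5 came from secreted proteins and from Actb. Of 27 tested genes of abundant secreted proteins 5 were called toward Cy5 and none toward Cy3, with a median dye term of 0.25. Over all 6054 genes with 1 probe each, 2.78% were called and the median was -0.0013. The 5 were Trf, the protease inhibitor Serpina1e (0.80 ± 0.09), the fetuin gene Ahsg (0.66 ± 0.09), Alb (0.66 ± 0.08) and the apolipoprotein gene Apoc1 (0.47 ± 0.08, SE). Of 17 acute phase genes, the haptoglobin gene Hp (0.60 ± 0.11) and the fibrinogen gene Fga (0.37 ± 0.08) were called toward Cy5. The housekeeping gene Actb, which encodes beta-actin, was called as well (0.42 ± 0.08, limma adjusted p = 0.03164). Gapdh had 0.14 and was not called. Outside the lists, and chosen after their values were seen, the bile acid carrier gene Slc10a1 (1.10), the catalase gene Cat (0.70) and the superoxide dismutase gene Sod1 (0.45) were also called toward Cy5.

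Among the 6 hepatocyte markers Alb, already named, was the one called. The remaining lists had no call in either direction. The 28 drug-metabolizing oxidases and reductases tested had dye terms between -0.23 (Aldh3a2) and 0.33 (Cyp2e1) with a median of 0.07. The 30 conjugation enzymes lay between -0.16 (Gstt1) and 0.35 (Ephx2) with a median of 0.07. The 74 cytosolic ribosomal protein genes had a median of 0.13 and the 60 nuclear-encoded genes of oxidative phosphorylation one of 0.07. Of the 6 tested major urinary protein genes of the list none was called, though their median was 0.34. Mup2 had the highest value among them, 0.67 (limma adjusted p = 0.05413). Mup19, which the list does not hold and which was chosen after its values were seen, was called toward Cy5 with 1.10 ± 0.09 (SE, limma adjusted p = 0.0001932). The members of this family are near-identical copies, so their signals are uncertain. The lists for endothelium, Kupffer cells, cholangiocytes and cell cycle had 2 or 3 tested members each, with medians between -0.15 and 0.00.

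The 1.5X two-colour arrays, another slide with RNA of the same mice, offer a further measurement of the dye term. Their Cy5 channel was nearly empty, with 2.96% to 7.39% of probes well above background, against 34.3% to 42.8% in Cy3. Only 1131 probes were measurable in both channels on all of these arrays, and the median raw log2 ratio was -6.20. With arrays of the same extracts averaged, 290 of them had a dye term at an adjusted p under 0.05 by limma, 224 toward Cy5 and 66 toward Cy3. The 1X probes called toward Cy5 had a median of 1.23 there (135 measurable, 109 called toward Cy5), beside 0.84 at 1X. Over all 1131 probes the 1.5X median was -0.08. Zfp663 had 2.95 at 1.5X and Rn28s1 2.40. The sign depended on the processing, in an alternative that changed the values and the filter together. With normexp values of all probes well above background in Cy3, Zfp663 had -0.98, Proser3 -1.25 and Rn28s1 -1.53, each called toward Cy3. That setting called 14114 of 16640 probes, 7027 toward Cy5 and 7087 toward Cy3. Of the 35 probes called toward Cy3 at 1X, 9 were measurable at 1.5X. They ran between -0.66 and 2.56, and 1 was called toward Cy3.

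The authors' deposited log10 ratios, already dye-normalized, held fewer dye terms. Put on the log2 scale and fitted the same way, they gave 23 calls, 9 toward Cy5 and 14 toward Cy3. Zfp663 kept a dye term of 1.12 and Proser3 one of 1.09 (limma adjusted p = 0.005836 for both), while A430033K04Rik stood at -1.91 and Gmpr at -1.04. For Alb it was 0.08, for Trf 0.20 and for Actb -0.02, and none of these was called.

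The exposure was then compared within each orientation. Ratios were corrected with normexp and loess and turned to phenobarbital over control. Probes were tested when well above background in the phenobarbital channel or in the control channel on all 6 arrays, 10027 in all. With phenobarbital in Cy5, 324 probes (3.23%) passed an adjusted p of 0.05, 229 higher and 95 lower. With phenobarbital in Cy3, 587 probes (5.85%) passed, 354 higher and 233 lower. Array median centring in place of loess turned the split of the first to 539 higher and 960 lower, and gave 370 higher and 217 lower in the second. Single arrays weighed on both counts. The first was 94 without array 1, 136 without array 5 and 116 without array 7. The second was 158 without array 2, 256 without array 6 and 1074 without array 3.

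The effect passed in both orientations with the same sign for 184 probes (1.84%), 137 higher and 47 lower in phenobarbital livers. Another 72 probes (0.718%) passed in both orientations with opposite signs, 60 of them on the side of Cy5 and 12 on the side of Cy3. Each orientation taken alone would have listed these as phenobarbital effects. They were 22.2% of the calls with phenobarbital in Cy5 and 12.3% of the calls with phenobarbital in Cy3. Array median centring in place of loess gave 48 such probes, 24 on each side, among 1499 and 587 calls. With local background subtracted there were 17, 10 on the side of Cy5 and 7 on the side of Cy3, among 243 and 290 calls. The 60 on the side of Cy5 were all at a brightness of 16 or more. Averaged over both orientations, the phenobarbital effect of the 72 had a median size of 0.16. The count with the same sign was 56 without array 1, 99 without array 2, 84 without array 5 and 68 without array 7. The count with opposite signs was 30, 32, 35 and 40 without these same arrays.

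**Figure D4:**
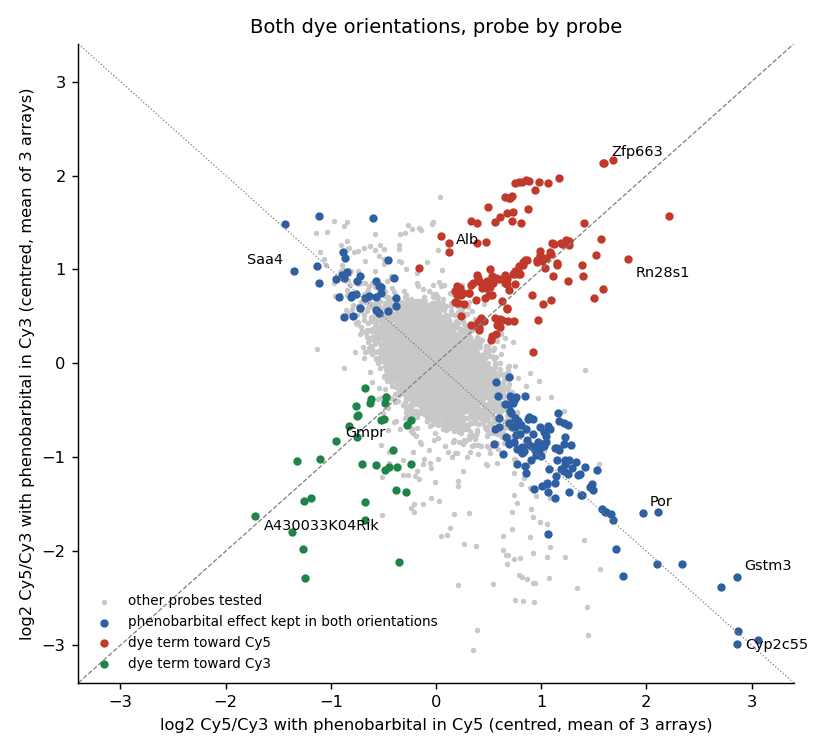
Centred raw log2 ratio of Cy5 over Cy3 of the 7113 tested probes, as the mean of 3 arrays with phenobarbital in Cy5 (x axis) and of 3 arrays with phenobarbital in Cy3 (y axis). A treatment effect lies along the dotted line and a dye effect along the dashed line. Probes kept in both orientations (blue) lie near the dotted line, and called dye terms (136 red toward Cy5, 35 green toward Cy3) along the dashed one.

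A test of the difference between orientations passed for 123 probes (1.23%), 87 higher with phenobarbital in Cy5 and 36 higher with phenobarbital in Cy3. Array median centring in place of loess gave 78 and 72. Of the 172 tested probes with a brightness of 16 or more, 86 passed it and none kept a phenobarbital effect in both orientations. The 5 genes with the largest positive differences were Zfp663, Proser3, Hexim2, Oprm1 and Pdcd4. After loess, the log2 ratio of phenobarbital over control for Zfp663 was 1.60, 1.51 and 1.59 with phenobarbital in Cy5, and -1.85, -1.70 and -1.61 with phenobarbital in Cy3 (difference 3.29 ± 0.14, SE, limma adjusted p = 4.492e-06). The 5 with the largest negative differences were A430033K04Rik, the ovarian transcription factor Foxl2, Gmpr, Llcfc1 and the synaptotagmin gene Syt3. The probe of Foxl2 had -0.07, -0.66 and -0.32 with phenobarbital in Cy5, and 1.46, 0.86 and 1.40 with phenobarbital in Cy3 (difference -1.59 ± 0.21). For both genes the orientations fell on opposite sides of 0.

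The difference between orientations is 2 times the dye term left after loess, so for a liver gene such as Alb it restates that term as a phenobarbital effect. Its log2 ratio of phenobarbital over control was 0.17, -0.06 and 0.05 with phenobarbital in Cy5, and -0.92, -0.78 and -0.78 with phenobarbital in Cy3. The groups did not overlap, and the difference was 0.88 (limma adjusted p = 0.01262). With phenobarbital in Cy5 alone Alb was at 0.05 (limma adjusted p = 0.8335), and with phenobarbital in Cy3 alone it fell by 0.83 ± 0.10 (SE, limma adjusted p = 0.001565). Ahsg and Serpina1e also differed between orientations. Ahsg had 0.30 with phenobarbital in Cy5 and -0.61 with phenobarbital in Cy3 (limma adjusted p = 0.01923), and Serpina1e had 0.71 and -0.43 (adjusted p = 0.02554). Trf had 0.87 with phenobarbital in Cy5 and -0.33 with phenobarbital in Cy3, a difference that did not pass (adjusted p = 0.07412).

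Several enzymes of drug metabolism kept their effect when the dyes were exchanged. Gstm3, a glutathione S-transferase, had log2 ratios of phenobarbital over control of 2.92, 2.54 and 2.69 with phenobarbital in Cy5, and of 2.43, 2.02 and 2.95 with phenobarbital in Cy3. It rose by 2.71 ± 0.16 in the first orientation and by 2.47 ± 0.16 in the second (SE, limma adjusted p = 6.431e-05 and 0.0001116). The cytochrome P450 gene Cyp2c55 had 2.07, 2.93 and 2.62 with phenobarbital in Cy5, and 2.46, 2.62 and 2.48 with phenobarbital in Cy3. Gstt3, a theta class transferase, had 2.61, 2.27 and 2.67 with phenobarbital in Cy5, and 2.61, 2.18 and 2.62 with phenobarbital in Cy3. In these 3 genes all 6 values exceeded 2 and the orientations overlapped.

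Cyp2c54 and Por, the reductase that supplies electrons to cytochromes P450, completed the enzymes among the 10 genes with the largest rises. Por rose by 1.78 ± 0.13 with phenobarbital in Cy5 and by 1.70 ± 0.13 with phenobarbital in Cy3 (SE, limma adjusted p = 0.0002429 and 0.0001974). Cyp2b10, the classical target of CAR, had 1.26, 2.11 and 1.94 with phenobarbital in Cy5, and 1.75, 2.02 and 1.25 with phenobarbital in Cy3. The control channel of Cyp2b10 was not well above background on any of the 6 arrays, so the fold is a bound: it was at least 3.2-fold higher in phenobarbital livers (measured log2 means 8.10 in phenobarbital and 6.38 in control livers). Both orientations passed (limma adjusted p = 0.001315 with phenobarbital in Cy5 and 0.001143 with phenobarbital in Cy3). Cyp2b10 entered the test only through the phenobarbital channel, the group in which it is high. Its pass is therefore partly set by the filter.

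Of 32 tested drug-metabolizing oxidases and reductases, 17 rose in both orientations and none fell in both, with a median effect of 0.59 with phenobarbital in Cy5 and 0.63 with phenobarbital in Cy3. Over all 8264 genes with 1 probe each, 1.92% passed in both orientations, and the medians were -0.03 and 0.01. Among the 17 were Cyp2a4, Cyp2c38, Cyp2c50, Cyp3a11, Cyp2c29, Cyp2c37, Aldh1a1 and Cyp1a2, and also Cyp2b10 with the limit of the filter given above. Of 31 conjugation enzymes 9 rose in both, such as Gstm1, Gstm2, Gstm4 and the epoxide hydrolase gene Ephx1. Cyp2u1 had -0.67 with phenobarbital in Cy5 and -0.51 with phenobarbital in Cy3 and passed only in the first (limma adjusted p = 0.03652 and 0.06624); the difference between orientations did not pass. Of 9 heme synthesis genes Alas1, the first enzyme of the pathway, rose in both (0.70, 1.92 and 1.63 with phenobarbital in Cy5, and 1.67, 0.58 and 2.29 with phenobarbital in Cy3). No member of these 3 lists was called in the test of the difference between orientations. In the test over mice given below, with the numbers of the source names, some of these genes did not pass. They were Alas1, Ephx1 and Cyp2c37 (limma adjusted p = 0.07475, 0.108 and 0.1053), while Cyp2c29, Cyp3a11 and Aldh1a1 did pass.

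Acute phase genes made up the other part of the 10 largest rises. Lcn2, the lipocalin that binds bacterial siderophores, had 2.60, 2.18 and 3.04 with phenobarbital in Cy5, and 3.47, 1.25 and 3.60 with phenobarbital in Cy3. Saa1, a serum amyloid gene, had 1.03, 2.52 and 3.02 with phenobarbital in Cy5, and 2.83, 0.76 and 3.10 with phenobarbital in Cy3. Saa2, Orm2 and Orm3 behaved likewise, with means between 1.76 and 1.90. All values of these 5 genes were above 0, but within an orientation they ranged more widely than those of Gstm3. On array 3 these 5 genes each had their lowest value of the orientation with phenobarbital in Cy3. The control channel of Orm3 was well above background on 3 of 6 arrays. In the test over mice given below, with the numbers of the source names, Saa1, Saa2 and Orm2 did not pass (limma adjusted p = 0.1733, 0.1936 and 0.05258), while Lcn2 and Orm3 did. With the authors' ratio Saa1 and Saa2 passed in neither orientation, and Lcn2, Orm2 and Orm3 in both. Of 18 tested genes of the list 7 rose in both orientations and Saa4 fell in both.

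Few cell cycle genes were bright enough to test. The 6 of 27 that were, Birc5, Mcm6, Mki67, Cdc20, Ccnb1 and Mcm7, rose in both orientations, Birc5 by 1.06 with phenobarbital in Cy5 and by 1.24 with phenobarbital in Cy3. Birc5, Mcm6 and Mcm7 were well above background in phenobarbital and control livers on all 6 arrays. For Cdc20 the control channel was well above background on 1 of 6 arrays, for Ccnb1 on 2 and for Mki67 on 5. Cdc20, Ccnb1 and Mki67 thus passed the filter through the group in which they were high. The filter favours a rise in such genes, so that all tested members rose is partly set by it. Gadd45b, a stress-induced gene that responds to CAR, rose by 0.93 and 1.08 in the same manner, with its control channel above background on 1 array.

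The 10 genes with the largest falls had smaller effects. Hectd2, a ubiquitin ligase gene, fell by 1.16 ± 0.26 with phenobarbital in Cy5 and by 1.29 ± 0.26 with phenobarbital in Cy3 (SE, limma adjusted p = 0.047 and 0.0237), and array 3 was its weakest with -0.28. Saa4, the constitutive serum amyloid gene, had -0.90, -0.76 and -1.40 with phenobarbital in Cy5, and -1.06, -0.86 and -0.80 with phenobarbital in Cy3. Ccdc169, Nrn1, Abca8a, Mcm10, Sdr9c7, Ang, Slc17a2 and Mup21 had mean effects between -0.97 and -0.71. The phenobarbital channel was well above background on 4 of 6 arrays for Hectd2, on 3 for Abca8a and on 2 for Slc17a2. With the authors' ratio all 10 kept a negative sign, but Saa4 alone passed in both orientations. Slc17a2 passed there with phenobarbital in Cy5 only and Mcm10 with phenobarbital in Cy3 only. Over mice with the numbers of the source names, Ang and Mup21 did not pass (limma adjusted p = 0.1429 and 0.05461), while the others of the 10 did. Without array 1 the count of probes lower in both orientations was 3, against 47 with all 6 arrays, and without array 7 it was 5.

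**Figure D5:**
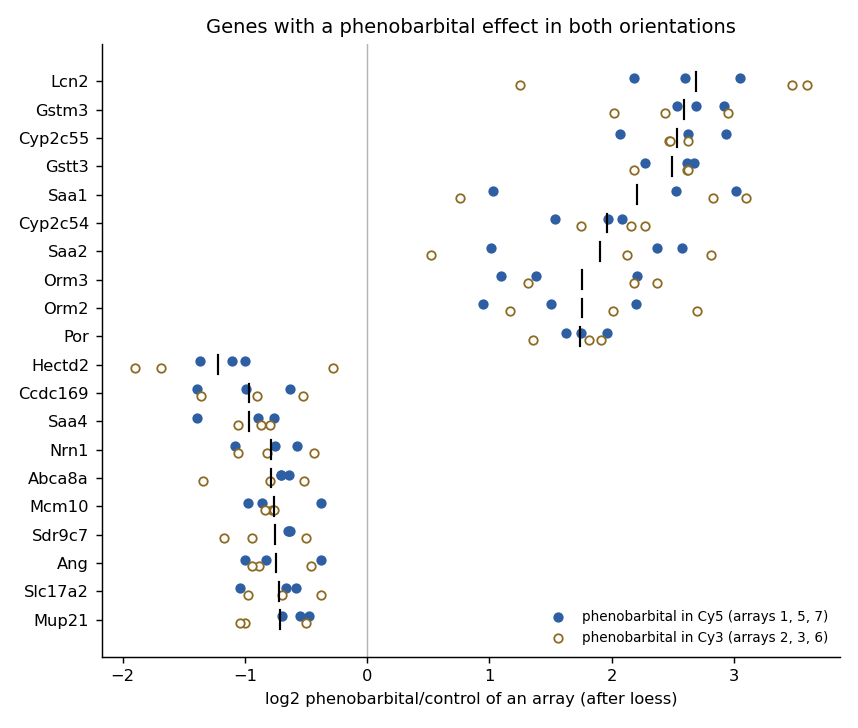
Log2 ratio of phenobarbital over control after loess (x axis) on each of the 6 arrays for the 10 genes with the largest rises and the 10 with the largest falls among those past the threshold in both orientations. Filled blue points are arrays with phenobarbital in Cy5, open brown points arrays with phenobarbital in Cy3, and black bars the mean. Gstm3, Cyp2c55 and Gstt3 lie above 2 on every array, while Saa1 and Saa2 spread between 0.52 and 3.10.

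The abundant secreted proteins kept no effect in both orientations, 0 of 27 tested, a share near the 1.92% over all genes, with medians of 0.07 with phenobarbital in Cy5 and -0.20 with phenobarbital in Cy3. With phenobarbital in Cy5, the complement gene C3, Trf and Serpina1e rose, and with phenobarbital in Cy3, Plg rose while Alb, Ahsg, Ttr and Apoe fell. The difference between orientations passed for Alb, Ahsg and Serpina1e of these.

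In cholesterol and fatty acid synthesis 2 of 22 tested genes rose in both orientations. They were Hmgcs1 (1.04 with phenobarbital in Cy5 and 0.93 with phenobarbital in Cy3) and Sqle (0.76 and 0.68), both enzymes of cholesterol synthesis. Of 21 genes of urea cycle and amino acid breakdown Bhmt, a methyltransferase of homocysteine, fell in both (-0.64 and -0.60). Of the 6 tested major urinary protein genes Mup17 rose in both (0.57 and 0.42) and Mup21 fell in both, with the uncertainty of near-identical copies. No gene passed in both orientations among 74 ribosomal protein genes, 62 genes of oxidative phosphorylation and 13 housekeeping genes. Over all genes with 1 probe each, 1.92% passed in both orientations. The counts of 0 are near that share and do not show that these genes were stable.

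All 6 hepatocyte markers were measured, and none passed in both orientations, a count near the 1.92% over all genes. The tested markers of Kupffer cells (5 of 8 on the array), endothelium (4 of 7), red cells (4 of 4) and cholangiocytes (2 of 5) did not pass in both orientations either. Mpeg1, a macrophage gene, passed with phenobarbital in Cy3 alone (0.65, limma adjusted p = 0.007644), beside 0.39 with phenobarbital in Cy5 (adjusted p = 0.08443). None of the 4 neutrophil markers was bright enough to test.

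Genes with a constant level in most tissues and the CAR gene itself were also followed. Nr1i3, which encodes CAR, had 0.07 with phenobarbital in Cy5 and 0.05 with phenobarbital in Cy3, neither past the threshold. Gapdh had 0.09 and 0.17, and Actb 0.29 and -0.14, again without a call. Cyp8b1, a bile acid synthesis enzyme, had -0.01 and -0.07. Cyp7a1 and Cyp2a5 were not tested here. Genes of exocrine pancreas were measurable on these liver arrays: 11 of the 12 on the array were tested, with a median of -0.95 with phenobarbital in Cy5 and -0.87 with phenobarbital in Cy3. None of them passed in either orientation or had a dye term, and their part in the results was not tested.

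With each mouse taken as the mean of its Cy5 and Cy3 values, 646 of the 10027 probes (6.44%) differed between phenobarbital and control mice (limma, n = 3 mice each), 331 higher and 315 lower. This used the mouse numbers of the description. On arrays 3, 5, 6 and 7 the source names give other numbers, and with those 121 probes passed, 93 higher and 28 lower. Arrays 4 and 7 (Pearson r of 0.85 across probes), and arrays 8 and 3 (0.88), each hold the same 2 livers by the source names but not by the description. By the description, arrays 4 and 2 (r of -0.51), and arrays 8 and 5 (-0.23), each hold the same 2 livers in the same dyes. Which numbers are right was not tested, and the count of 646 holds only if those of the description are. Of the 184 probes kept in both orientations, 182 passed with the numbers of the description and 115 with those of the source names. Of the 72 probes with opposite signs, 3 passed with the numbers of the description. The effect over mice is the mean of both orientations of the same 6 arrays. These overlaps follow largely from how the probes were chosen and are not separate support. The count of 646 was 268 to 399 when either any control mouse or phenobarbital mouse 1 or 2 was left out, and 776 without phenobarbital mouse 3.

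Arrays 4 and 8 were compared with the others array by array, without a test. Turned by their channel labels, Cyp2c55 had a log2 ratio of phenobarbital over control of 2.65 on array 4 and 2.62 on array 8, Gstm3 had 2.60 and 2.20, and Por had 1.98 and 1.41. These lie within or next to the range of the other 6 arrays, and the description would give each the opposite sign. Across 6862 probes the centred ratio of array 4 had a Pearson r of 0.85 with array 7, and that of array 8 one of 0.88 with array 3, across probes, which are not independent. By the source names, each of these pairs holds the same 2 livers in the same dyes. With both arrays added by their channel labels and each such pair averaged, 183 probes kept an effect of the same sign in both orientations. With both added by the description, 0 did by limma (131 at an unadjusted p under 0.05), while 71 passed with phenobarbital in Cy5 and 67 with phenobarbital in Cy3.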

How the data were processed

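Livers of 6 mice were measured on the 8 two-colour 1X arrays, with the 1.5X arrays and the one-colour 1X arrays used for comparison. Spot values came from Agilent Feature Extraction 11.0.1.1 in the authors' hands, as the file headers state. Each deposited file gives intensity values per spot: median signals of spot and local background, background-subtracted signals and dye-normalized processed signals in each channel. They also hold a log10 ratio of Cy5 over Cy3 and spot flags (other values of 0 or 1), per the file headers. The direction of the deposited series matrix follows the channel labels on all 8 arrays. The slide has 62976 spots, of which 3671 are controls, and 55681 probes. Symbols came from matching accessions to RefSeq assembly GRCm38.p6, for names only, and cover 27235 probes. Coordinates are those of the files' build, mm9. The number of arrays limits the precision.

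The dye term was computed from log2 ratios of median signals less local background, centred on the array median, with the orientation as a term in limma 3.58.1 (R 4.3.3). For exposure effects, normexp (offset 50) and loess (span 0.3) were applied and both orientation means fitted in 1 model. Mouse values were log2 values after Aquantile normalization. Bounds replace dim values with the lowest signal well above background of that array and channel. P-values were adjusted by Benjamini-Hochberg over all probes tested, with a threshold of 0.05. Spots flagged as uneven were dropped. Genes were named by a fixed rule: the 10 highest and 10 lowest dye terms with the same sign on all 6 arrays, the same for effects in both orientations, 5 each way for the difference between orientations, a panel of liver genes and members of 20 gene lists. These lists and rules were chosen with earlier results of these data known. Tested on simulated ratios with 200 changed probes among 7113, the fit found 96.5% of dye terms of 1 on the log2 scale and 49.5% of those of 0.5. For effects in both orientations it found 0% at 0.5, 74.0% at 1 and 99.0% at 2. Figures used matplotlib 3.10.9 in Python 3.11.15. Alternatives were both labellings of all 8 arrays, each array or mouse left out, other background corrections and normalizations, the authors' log10 ratio, other filters, the slide row and other mouse numbers. Results for a few list members are not reported here.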

Additional observations from a re-analysis of the deposited data

Results flagged for a closer look

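The log2 ratios of phenobarbital over control of 2 named genes held 1 array far from the other 5. For Abca8a, a transporter gene, this was array 2 with -1.35, and for Mcm10, a replication factor gene, array 5 with -0.38. Chance flags about 1 in 20 such groups, and 2 of the 35 named genes tested in this way were flagged.

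Alb was the gene of the panel whose phenobarbital effect differed between orientations by limma, by 0.878 (adjusted p = 0.01262), with 0.05 where phenobarbital was in Cy5 and -0.83 where it was in Cy3. This difference is 2 times the dye term left after loess, so it is not a second observation beside the dye term of Alb.

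Arrays 4 and 8, which entered only the alternatives with 8 arrays, carried a Cyp2b10 signal. The log2 ratio of Cy5 over Cy3 after loess was 1.81 on array 4 and -1.55 on array 8.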

How the results depend on the processing

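The dye term passed for 104 probes without background subtraction, 105 with normexp, 23 with the authors' deposited log10 ratio and 106 as a within-mouse difference, against 171. Leaving out 1 array gave 120 to 187. The median raw dye term of -1.17 was 0.00203 in the authors' signals after dye normalization. At 1.5X, normexp values with a filter on Cy3 alone gave 14114 calls, against 290.

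The effect with phenobarbital in Cy5 (324) passed for 71 probes with 8 arrays by the description, 1499 with array median centring, 160 with the authors' ratio and 214 with the slide row as a block, and for 94 to 437 with 1 array left out. With phenobarbital in Cy3 (587) it passed for 67 by the description, 290 with local background subtracted, 154 with the authors' ratio, 939 without a filter and 381 with the slide row, and for 158 to 1074 with 1 array left out. Effects in both orientations (184) numbered 0 by the description in limma (131 at an unadjusted p under 0.05), 100 with the authors' ratio, 120 with the slide row and 56 to 253 with 1 array left out. Opposite signs (72) numbered 42 by the description, 17 with local background subtracted, 6 with the authors' ratio and 30 to 67 with 1 array left out. Differences between orientations (123) numbered 52 with local background subtracted, 5 with the authors' ratio, 218 without a filter and 85 to 140 with 1 array left out.

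Over mice (646), 8 arrays gave 122 by the channel labels and 0 by the description in limma (1061 at an unadjusted p under 0.05), mouse numbers of the source names gave 121, and leaving out 1 mouse gave 268 to 776. With the mouse number as a replicate block 996 passed. Same-numbered mice deviated together with r of 0.28, -0.04 and 0.37, so the numbers were not taken as pairs.

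For named genes, 190 of 225 recomputed dye terms kept their direction and side of the threshold, as did 185 of 257 effects with phenobarbital in Cy5, 210 of 257 with phenobarbital in Cy3 and 114 of 130 differences. The dye term of Pdzk1 turned to 0.0551 without background subtraction and to 0.0318 with normexp. The causes were not tested. Low Cy5 signal limits what the dye term can be measured on.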
